A study of Mus musculus with 17 samples.

Results

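This account follows 36 liver genes that encode complement proteins and clotting factors, through young, old and miR-29 transgenic mouse liver. They were picked by gene symbol, by a rule that uses no measured value but was written with earlier results of these data known, from the 48440 genes in the deposited table of normalized counts. Of these, 19 belong to blood coagulation and its control and 17 to complement, and they were sorted into 9 arms of the 2 cascades. All 36 had a mean of at least 10 normalized counts over the 17 libraries and were among the 14588 genes tested. A second row for Klkb1, with a mean of 2.62, was left out. The series compares polyadenylated liver RNA of B6 mice in 3 groups: wild type aged 2 months (WT_2mon, 6 libraries, of which 4 male), wild type aged 2 years (WT_2year, 5 libraries, of which 3 male) and miR-29 transgenic aged 2 months (TG_2mon, 6 libraries, of which 5 male). The title of the series links miR-29 to the phenotypes of ageing. The labels do not give the promoter that drives the transgene or say that each library came from a separate animal, so p-values measure the spread between libraries. The 10 libraries of batch A were made with a TruSeq kit at 1 site, and the 7 of batch B, all male, with a NEBNext kit at another.

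Clotting and complement are chains of plasma proteases, each made as an inactive precursor that the previous one cuts. Clotting ends when thrombin turns fibrinogen into fibrin, and complement ends when C5b, C6, C7, C8 and C9 assemble into a pore, the membrane attack complex. Hepatocytes make most of these proteins, and several of them, among them fibrinogen and C3, are known acute-phase proteins that rise in plasma during inflammation. In mice, some terminal complement proteins are known to be more abundant in males than in females. miR-29 is a family of microRNAs that lower messages with a match to its seed.

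The normalized counts of a library summed to between 28077001 and 44543936, and the 36 genes took 2.48% to 8.22% of that sum. The miR-29 precursor genes were listed at 0 in all 17 libraries of polyadenylated RNA, which are not made to hold mature microRNAs, so the transgene was not checked here. Xist and Ddx3y matched the labelled sex in all 17 libraries. The 11 hepatocyte markers found were present in every group, with summed values of 3518940 to 5050240 in young wild type, 3024550 to 4743850 in old wild type and 2571920 to 6698640 in transgenic liver. All 10 neutrophil markers were found, and their sum was 28.1 to 491 in young wild type, with 1 of the 10 listed at 0 throughout, 97.4 to 2228 in old wild type and 427 to 48271 in transgenic liver. The sum of 10 Kupffer cell and macrophage markers was 11256 to 18843 in young wild type, 11478 to 40014 in old wild type and 8071 to 67125 in transgenic liver. The only transgenic female (TG_2mon replicate 3) stood apart. It had the lowest hepatocyte sum of all 17 libraries, and it was the lowest of all 17 for 18 of the 36 members, whereas 13.6% of all genes tested had their lowest value there. Calls between transgenic and young wild-type liver are given with and without it. Values for batch A alone always include it, and batch B holds no female. In whole liver, fewer cells of a type and less RNA per cell cannot be told apart.

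The mature miR-29 sequences are shown because the transgene is named for this family. They are RefSeq entries, read 5′ to 3′, with the seed, bases 2 to 8, in capitals, and all 3 share it. On GRCm38.p6, miR-29a-3p lies at chr6:31062673-31062694 (minus strand), miR-29b-3p at chr1:195037091-195037113 (plus strand) and miR-29c-3p at chr1:195037600-195037621 (plus strand). The genes listed include both Mir29b-1 and Mir29b-2, and only this location is given for miR-29b-3p.
mmu-miR-29a-3p: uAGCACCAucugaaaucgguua
mmu-miR-29b-3p: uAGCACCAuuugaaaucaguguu
mmu-miR-29c-3p: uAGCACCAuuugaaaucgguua
The match to this seed, TGGTGCT on the message strand, was looked for in every gene, in its longest annotated 3′ UTR. It was present in 1 of 36 members (2.78%), against 15.4% of the 12927 tested genes with an annotated UTR. The UTRs of the members had a median length of 375 bases, against 1151 for all those genes. The member with the match was Serpinc1, which encodes antithrombin, the main inhibitor of thrombin. Its match starts at base 187 of a UTR of 3400 bases and reads, with 10 bases on either side, acctatatccTGGTGCTtttgaaggta. Serpinc1 had 45252, 57811, 64082 and 66107 normalized counts in young wild-type males, 62584 and 62510.5 in young females, 59373, 36006, 81534, 63937 and 54459.5 in transgenic males and 23204 in the transgenic female. The transgenic males overlapped the young males, and the log2 fold change was -0.35 ± 0.26 (SE, adjusted p = 0.478). No member that changed with the transgene holds the match in this window.

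Per kilobase of exon, the members spanned a wide range in young wild-type liver. The fibrinogen chains led, with medians of 51837 normalized counts per kb for Fgg, 49844 for Fga and 39249 for Fgb. C3, the protein on which all complement routes converge, followed at 26611, then Kng1, the kininogen, at 21794 and Plg, the precursor of plasmin, at 19890. The lowest were F8, the cofactor lost in haemophilia A and made mainly by endothelial cells, at 20.5 per kb and Masp1, a lectin-route protease, at 52.1 per kb. Among the terminal components the order per kb was C9 at 10448, C8g at 7888, C8a at 5799, C8b at 4455, Hc, which encodes C5, at 2408 and C6 at 2037. Neighbours at the top of this order, such as Fgg and Fga, differed by less than their spread over the 6 libraries.

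With the miR-29 transgene, 10 of the 36 members fell and none rose. They were 5 of the 6 terminal complement genes (C6, C8a, C8b, C8g and C9), the clotting genes Klkb1 and F11, the classical-route proteases C1ra and C1s1, and the lectin-route protease Masp2. Over all genes tested, 3.83% fell and 2.89% rose (limma, group, batch and sex as terms, adjusted p under 0.05 for each call). The median log2 fold change was -0.20 over the 36 members, against 0.01 over all genes, and -1.96 over the terminal arm. The other arms had medians from -0.70 in the lectin route to 0.76 in fibrin formation. At an unadjusted p under 0.05, 15 of 36 members and 3099 of the 14588 genes differed. Without the transgenic female 5 members fell (C6, C8a, C8b, C9 and Klkb1), and without TG_2mon replicate 2 or WT_2mon replicate 6 the count was 6. In males alone the same 5 and C8g fell. With each library scaled to equal totals, or with quantile normalization, 7 members fell and C3 rose. The equal-totals scaling moved the median of all genes by 0.13 (log2). In a fit of only the young groups 11 fell and 2 rose (C3 and Pros1).

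**Figure D1:**
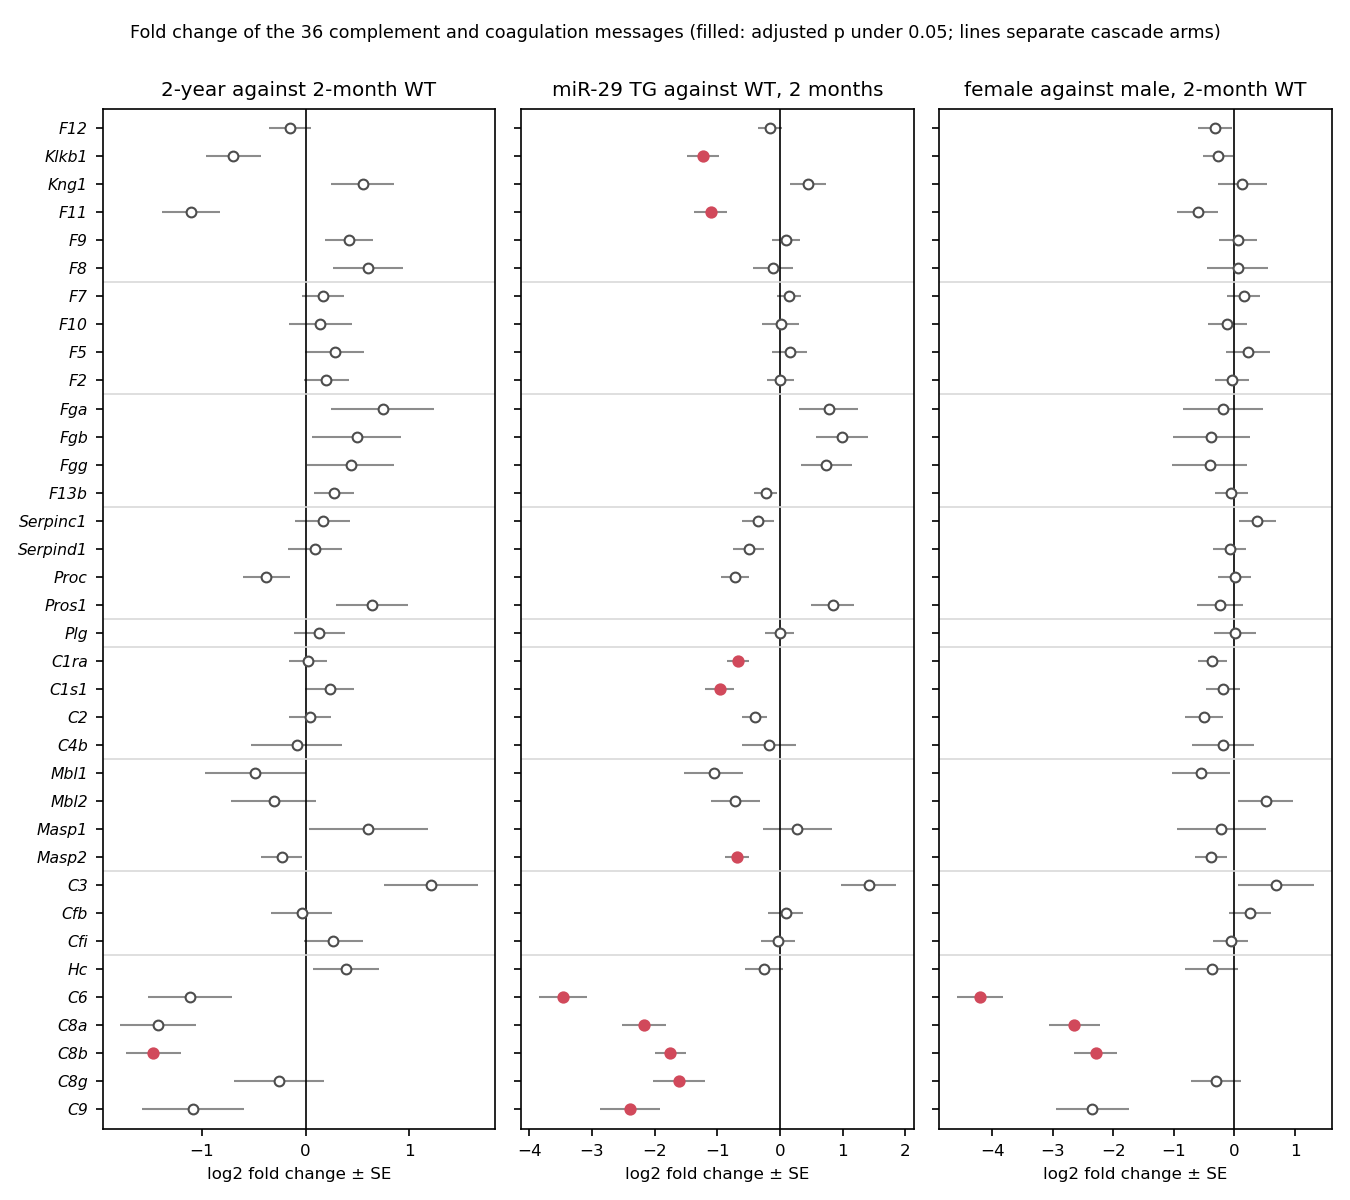
Log2 fold change (horizontal axis) ± SE of each of the 36 members for age, transgene and sex, ordered by cascade arm from contact clotting at the top to terminal complement at the bottom; filled points passed adjusted p under 0.05. The terminal genes C6, C8a, C8b and C9 lie left of 0 in all 3 panels, as do C8g, F12, Klkb1, F11, C4b, Mbl1 and Masp2. In the transgene panel 10 points are filled, in the age panel 1 and in the sex panel 3.

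C6, the first protein of the pore that binds to C5b, changed most. It had 15804, 13621, 6445 and 8042 normalized counts in the 4 young wild-type males and 429, 592, 596, 671 and 609 in the 5 transgenic males. Every transgenic male lay far below every young male, and the ratio of the male means was 18.95-fold. Young wild-type females had 922 and 474, and the transgenic female had 292. The transgenic males thus lay within or just below the range of the wild-type females. The log2 fold change adjusted for batch and sex was -3.46 ± 0.39 (SE, adjusted p = 8.33e-05), with -3.43 in batch A and -3.53 in batch B. C6 kept its call in each of 33 alternative fits, with log2 fold changes from -4.11 to -3.18.

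C8a and C8b encode the alpha and beta chains of C8. C8a had 17365, 24808, 34120.3 and 39076 normalized counts in young males against 8386, 5494, 7266, 15492 and 11958 in transgenic males, and 3649.8 and 4133 in young females against 256 in the transgenic female. No transgenic library reached a young wild-type library of its sex, and the log2 fold change was -2.17 ± 0.35 (SE, adjusted p = 0.00116). C8b had 10123, 12554, 27562 and 23035 in young males against 4139.7, 3529.5, 4652, 8567 and 6787 in transgenic males, and 3026 and 2536 in young females against 981 in the transgenic female. Young and transgenic libraries also did not overlap within a sex, and the log2 fold change was -1.75 ± 0.25 (SE, adjusted p = 0.000488). Within batches, C8a gave -2.59 in batch A and -1.73 in batch B, and C8b gave -1.62 in batch A and -1.96 in batch B. Without the sex term, C8a and C8b lost their calls (adjusted p = 0.211 and 0.145), as C8a did in batch B alone (0.0546).

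C9 polymerizes to form the wall of the pore. It had 23710.5, 31192, 34059 and 29701 normalized counts in young males and 4099, 2944, 6123, 11094 and 7562 in transgenic males. Young females had 6262 and 4624 and the transgenic female 647. All transgenic libraries lay below the young wild-type libraries of their sex. The log2 fold change was -2.39 ± 0.47 (SE, adjusted p = 0.00508), with -2.96 in batch A and -1.99 in batch B. In batch B alone the adjusted p was 0.0639. C8g encodes the gamma chain of C8, a lipocalin unlike the other chains. It had 7617, 13445, 32584 and 26227 in young males and 5935, 2786, 7384, 8416 and 13805 in transgenic males, so that the ranges overlapped. Young females had 10108 and 8536 and the transgenic female 1391. Within each batch the transgenic males lay below the young males, with 2 against 2 in batch A and 3 transgenic against 2 young in batch B. The share of all genes that did so was not computed, and C8g was not called in either batch alone. The log2 fold change of C8g was -1.61 ± 0.42 (SE, adjusted p = 0.0286). Its call was lost without any 1 of WT_2mon replicates 2, 5 and 6 or TG_2mon replicates 2 and 3 (adjusted p from 0.0677 to 0.0992). Hc was the only terminal member not called, at -0.25 ± 0.31 (SE, adjusted p = 0.704).

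**Figure D2:**
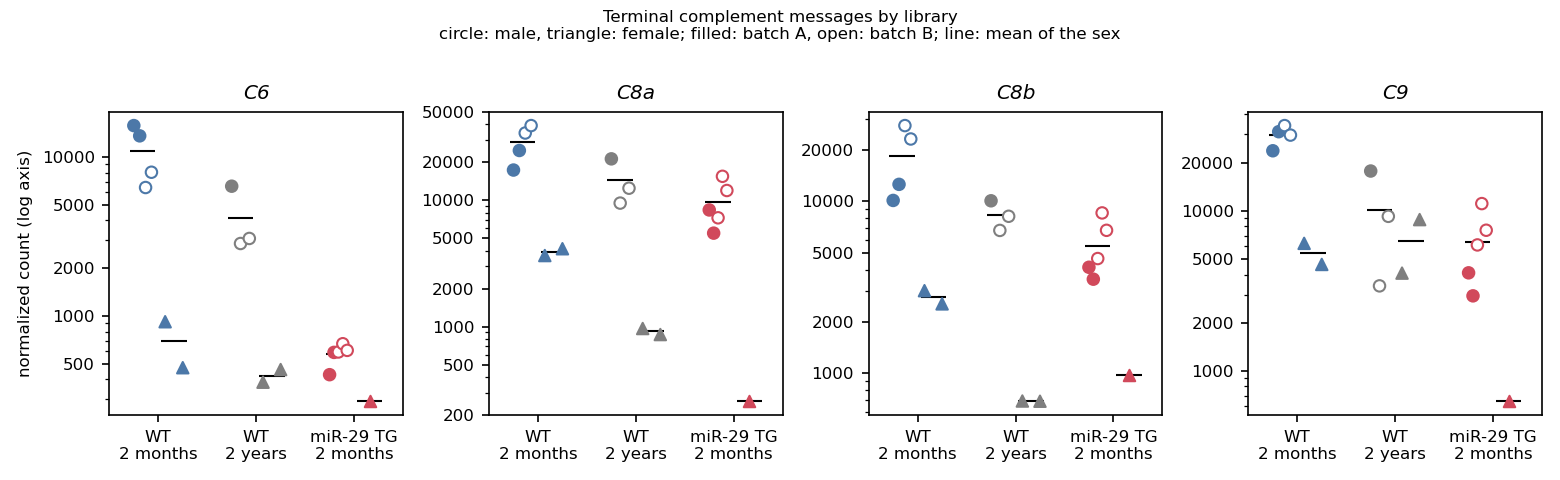
Normalized counts (log axis) of C6, C8a, C8b and C9 in each of the 17 libraries by group, with circles for males, triangles for females, filled symbols for batch A, open symbols for batch B and lines at the mean of each sex. The 5 transgenic males lie below the 4 young wild-type males for each gene, and for C6 they lie at the level of the young females.

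The summed value of C6, C8a, C8b and C9 was 67003 to 102185 in young males, 12559 to 35823 in transgenic males, 11767 and 13860 in young females and 2175 in the transgenic female. The neutrophil marker sum was 659 and 427 in transgenic males of batch A and 7807, 48271 and 24288 in those of batch B. Young wild type had 28.1 to 90.8 in batch A and 491 and 327 in batch B. The part of the neutrophil sum in the complement values was not tested.

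The RefSeq promoter windows of these genes, which span the start site (GRCm38.p6), are shown because all 4 messages fell with the transgene. Capitals mark matches to motifs of liver and acute-phase factors, and each window is read 5′ to 3′ on the gene's strand.
C6 (chr15:4726960-4727259, plus strand): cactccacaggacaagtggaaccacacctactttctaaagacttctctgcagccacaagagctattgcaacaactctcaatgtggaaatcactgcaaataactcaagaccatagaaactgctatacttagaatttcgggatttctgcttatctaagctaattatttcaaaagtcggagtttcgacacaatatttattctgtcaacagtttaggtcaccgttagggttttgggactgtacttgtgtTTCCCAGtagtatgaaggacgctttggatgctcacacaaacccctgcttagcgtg
C8a (chr4:104876349-104876648, minus strand): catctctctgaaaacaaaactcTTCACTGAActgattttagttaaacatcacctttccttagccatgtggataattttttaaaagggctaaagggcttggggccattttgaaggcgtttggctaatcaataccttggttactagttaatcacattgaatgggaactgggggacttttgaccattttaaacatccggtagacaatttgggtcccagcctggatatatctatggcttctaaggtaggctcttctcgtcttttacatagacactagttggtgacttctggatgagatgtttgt
C8b (chr4:104766067-104766366, plus strand): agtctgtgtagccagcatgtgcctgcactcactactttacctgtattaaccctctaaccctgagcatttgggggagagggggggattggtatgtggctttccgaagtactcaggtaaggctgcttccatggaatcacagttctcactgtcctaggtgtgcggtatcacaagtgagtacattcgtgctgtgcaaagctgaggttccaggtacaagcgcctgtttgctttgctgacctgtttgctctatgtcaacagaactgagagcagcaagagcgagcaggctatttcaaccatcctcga
C9 (chr15:6445096-6445395, plus strand): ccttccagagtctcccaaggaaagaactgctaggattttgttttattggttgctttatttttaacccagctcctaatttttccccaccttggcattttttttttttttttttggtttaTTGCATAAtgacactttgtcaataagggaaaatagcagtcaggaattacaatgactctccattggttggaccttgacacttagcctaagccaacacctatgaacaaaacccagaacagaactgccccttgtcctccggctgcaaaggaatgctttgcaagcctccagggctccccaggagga
Positions are counted from the start site to the leftmost base of a match. The C6 window holds 1 IL-6 type II element (CTGGGAA, here on the other strand) at -5. The C8a window holds a GAS motif (TTCNNNGAA) at -228, and the C9 window a C/EBP motif (TTGCNNAA) at -132. The C8b window holds none of the motifs searched. No motif was shared by all 4 windows. The motifs were searched on both strands in 30 windows of the 28 matched members and in 32851 windows in all. GAS was in 23.3% of the members' windows against 8.30% of all, the IL-6 type II element in 20.0% against 11.1% and C/EBP in 33.3% against 10.8%. The HNF4 core CAAAGTCCA was in none of them, against 0.475% of all windows. In F9 and Masp2 the GAS and IL-6 matches are the same bases. C6 and C9 lie on chromosome 15, 1630359 bases apart, and C8b and C8a lie end to end on chromosome 4 with 11130 bases between them (GENCODE M21, GRCm38).

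Klkb1 and F11 belong to the contact and intrinsic route of clotting. Klkb1 encodes plasma prekallikrein, the protease that activates factor XII, and F11 encodes factor XI, its close relative. They lie 4657 bases apart on chromosome 8. Klkb1 had 10828, 10531, 15061 and 17809 normalized counts in young males and 9692 and 9717 in young females, against 5787, 5122, 5892, 6214 and 8218 in transgenic males and 2591 in the transgenic female. All 6 transgenic libraries lay below all 6 young wild-type libraries, against 1.84% of all genes lower in this way and 1.11% higher. The log2 fold change of Klkb1 was -1.23 ± 0.25 (SE, adjusted p = 0.00718), with -1.29 in batch A and -1.29 in batch B. In batch B alone the adjusted p was 0.0722.

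F11 had 3407, 2955, 1742 and 2441 in young males, 1967 and 2135 in young females, 2878, 1072, 1081, 1164 and 863 in transgenic males and 549 in the transgenic female. TG_2mon replicate 1, at 2878, lay among the young males, and the other 5 transgenic libraries lay below every young library. The log2 fold change of F11 was -1.11 ± 0.27 (SE, adjusted p = 0.0186). The call was lost without any 1 of TG_2mon replicates 2 and 3 or WT_2mon replicate 6 (adjusted p from 0.0529 to 0.0658). The remaining members of this arm, F12, Kng1, F9 and F8, had log2 fold changes from -0.16 to 0.45 and did not pass.

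C1ra and C1s1 encode C1r and C1s, the proteases of the C1 complex that open the classical route, and lie 6901 bases apart on chromosome 6. C1s1 had 21771, 15225, 8371 and 9021 normalized counts in young males, 15738 and 14691 in young females, 13049.9, 8186, 7728, 6629.5 and 4496 in transgenic males and 3811 in the transgenic female. The young and transgenic males overlapped over the 2 batches. Within each batch the transgenic males lay below the young males, but the share of all genes that did so was not computed. C1s1 was called in batch A alone and not in batch B alone. The log2 fold change of C1s1 was -0.96 ± 0.23 (SE, adjusted p = 0.0164), with -1.29 in batch A and -0.50 in batch B. C1ra had 12184, 12379.8, 6675 and 6903 in young males, 9289 and 9259 in young females, 8252, 7923, 6223, 6146 and 3654 in transgenic males and 3890.0 in the transgenic female. Its log2 fold change was -0.67 ± 0.18 (SE, adjusted p = 0.0311), with -0.88 in batch A and -0.39 in batch B. Without the transgenic female, the adjusted p was 0.0555 for C1s1 and 0.0978 for C1ra. C1ra also lost its call without any 1 of WT_2mon replicates 1, 2, 3, 4 and 6 or TG_2mon replicates 2 and 6 (adjusted p from 0.05 to 0.065).

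C2 and C4b complete the classical route and did not pass, at -0.40 ± 0.20 (SE, adjusted p = 0.257) and -0.18 ± 0.42 (SE, adjusted p = 0.86). C4b shares most of its sequence with C4a, so reads of the pair may have been divided between them in counting. Masp2 encodes MASP-2, which cuts C4 and C2 once mannose-binding lectin has bound. It had 5992, 7445, 7458 and 6039 in young males, 6057 and 5166 in young females, 5542, 3664, 3946, 4140.5 and 3173 in transgenic males and 3193 in the transgenic female. The male groups did not overlap, and the log2 fold change was -0.69 ± 0.19 (SE, adjusted p = 0.0417). This call had the largest adjusted p of the 10 and was lost without any 1 of 12 libraries: WT_2year replicates 1, 3 and 5, WT_2mon replicates 1, 2, 3, 5 and 6 and TG_2mon replicates 2, 3, 5 and 6 (adjusted p from 0.0507 to 0.12, with replicate 3 of the transgenic group giving the highest). Mbl1 and Mbl2, the mannose-binding lectins, were at -1.06 ± 0.47 (SE, adjusted p = 0.199) and -0.72 ± 0.39 (SE, adjusted p = 0.316).

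**Figure D3:**
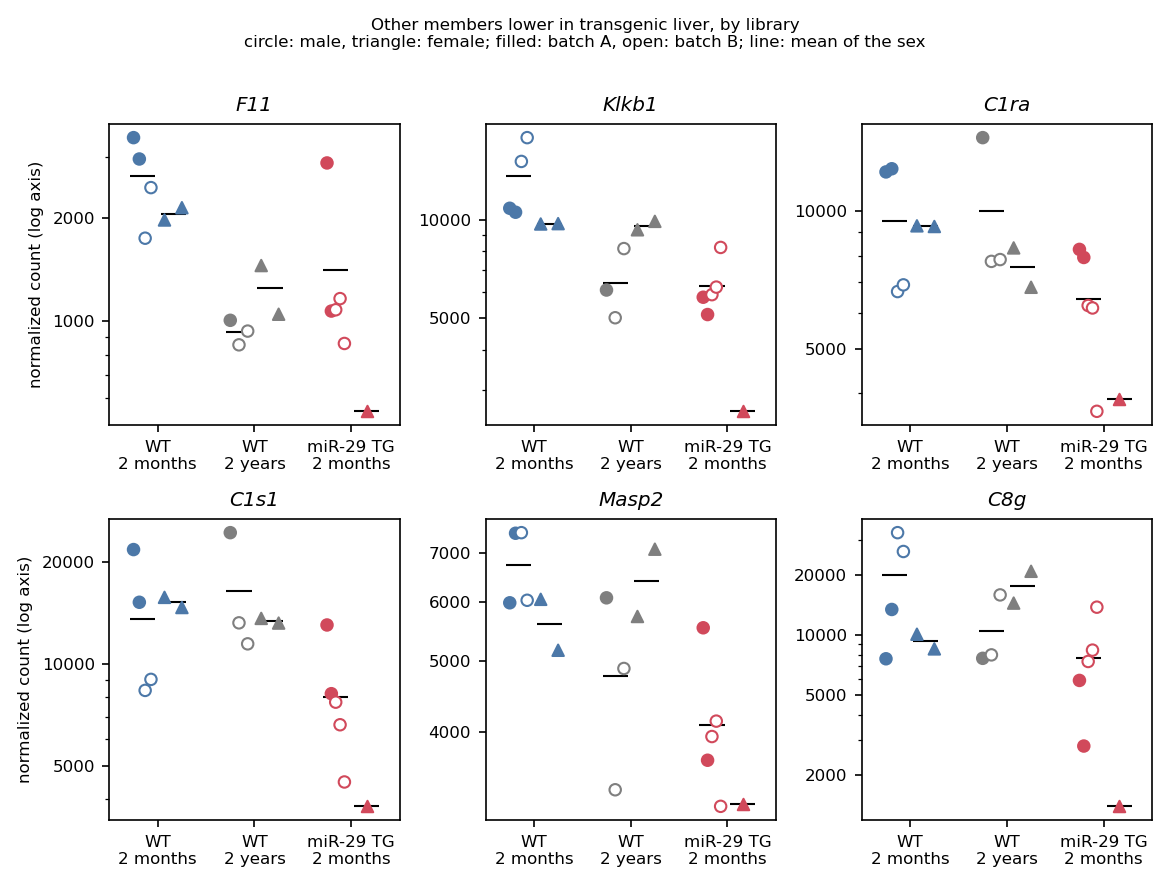
Normalized counts (log axis) of F11, Klkb1, C1ra, C1s1, Masp2 and C8g in each of the 17 libraries by group, drawn as circles for males and triangles for females, filled for batch A and open for batch B, with lines at the mean of each sex. The transgenic female, at 549 for F11 and 1391 for C8g, is the lowest library for F11, Klkb1, C1s1 and C8g.

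Young and transgenic males did not overlap for 6 members lower in the transgenic males (C6, C8a, C8b, C9, Klkb1 and Masp2) and for 1 higher (C3). Of all genes tested, 3.44% were lower without overlap and 2.85% higher. The transgenic female lay below both young females for 32 of 36 members and above both for 3 (C3, Fgb and Pros1). With 1 library against 2, 43.9% of all genes lay below and 44.7% above. The test of whether the transgene effect differed between sexes called C6 and Cfi. C6 was at 2.94 ± 0.58 (SE, adjusted p = 0.0252) for the effect in females minus that in males. Cfi, the protease that inactivates C3b, was at -1.92 ± 0.44 (SE, adjusted p = 0.0465). Cfi had 20411 and 19598 in young females and 6936 in the transgenic female, against 17599, 21585, 18680.2 and 20467 in young males and 32802, 23332, 25286, 27759 and 19207 in transgenic males. Of all genes, 0.425% had a higher and 0.871% a lower call in this test, and sex cannot be told apart from this 1 library. No member had an effect of the transgene that differed between batches at adjusted p under 0.05 (limma), and 73 of all genes tested were called. At an unadjusted p under 0.05, 1 of 36 members and 2287 of all genes differed.

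Fibrinogen and C3 lay higher in transgenic males but did not pass. Fgb, the beta chain, had 144536, 249823, 154540.1 and 155123 normalized counts in young males and 208525, 640709, 233604, 567702 and 442709 in transgenic males. The ranges overlapped only through WT_2mon replicate 2, the highest of the young group. Its log2 fold change was 0.99 ± 0.41 (SE, adjusted p = 0.175). The alpha chain Fga and the gamma chain Fgg were at 0.77 ± 0.48 (SE, adjusted p = 0.385) and 0.74 ± 0.41 (SE, adjusted p = 0.317), and F13b, the carrier subunit of the fibrin-linking factor XIII, was at -0.23 ± 0.18 (SE, adjusted p = 0.522). C3 had 104180.3, 172781, 56617 and 69637 in young males and 257644, 387328, 384771, 383915 and 186986 in transgenic males, a ratio of means of 3.18-fold with no overlap. Young females had 195317 and 169543 and the transgenic female 227936. The log2 fold change of C3 was 1.41 ± 0.44 (SE, adjusted p = 0.0619), with 0.83 in batch A and 2.27 in batch B. Its neighbours in the arm, Cfb, the protease of the alternative route, and Cfi, were at 0.09 ± 0.28 (SE, adjusted p = 0.895) and -0.04 ± 0.27 (SE, adjusted p = 0.957).

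**Figure D4:**
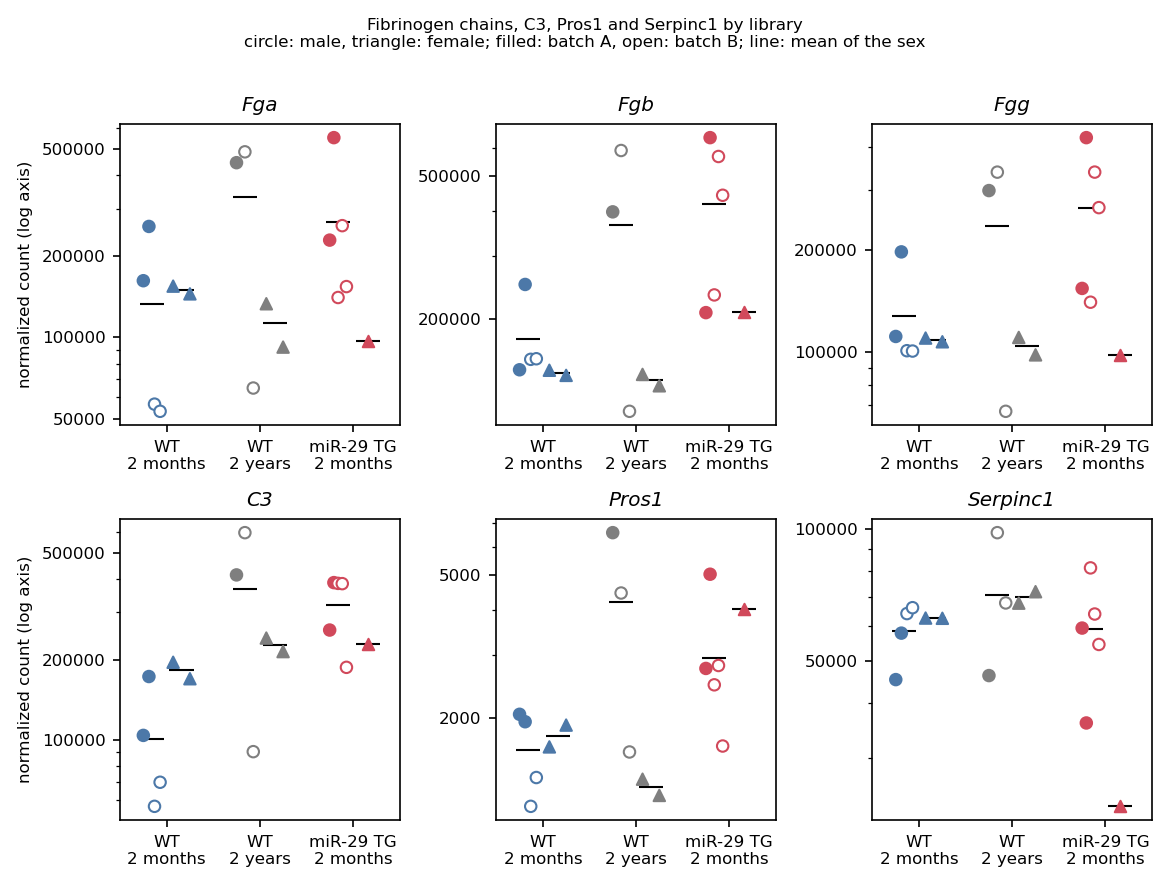
Normalized counts (log axis) of the fibrinogen chains Fga, Fgb and Fgg, of C3, of Pros1 and of Serpinc1 in each of the 17 libraries by group, with circles for males, triangles for females, filled symbols for batch A, open symbols for batch B and lines at the mean of each sex. C3 in transgenic males, from 186986 to 387328, lies above all 4 young males, whereas the fibrinogen chains overlap between groups.

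Among the anticoagulants, Proc, the precursor of activated protein C, was at -0.72 ± 0.22 (SE, adjusted p = 0.0594) and its cofactor Pros1, protein S, at 0.84 ± 0.34 (SE, adjusted p = 0.157). Pros1 had 2046, 1950.3, 1133 and 1363 in young males and 2746, 5028, 2472, 2798 and 1669 in transgenic males, with overlap. Serpind1, heparin cofactor II, was at -0.50 ± 0.25 (SE, adjusted p = 0.271). No member of the extrinsic and common route passed. F7, F10, F5 and F2, which encode factors VII, X and V and prothrombin, had log2 fold changes from 0.01 to 0.15, with F7 at 0.15 ± 0.19 (SE, adjusted p = 0.728). Plg was at -0.01 ± 0.23 (SE, adjusted p = 0.991).

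In the authors' deposited table for the transgene, 12 members were lower and 4 higher, of 7.06% lower and 7.01% higher over its 15714 genes. It held all 10 members called here, and in addition Proc and Mbl1 as lower and C3, Fga, Fgb and Pros1 as higher. The authors' deposited table gave C3 a log2 fold change of 1.50 ± 0.32 (their SE), Fgb 1.12 ± 0.32 and Pros1 0.98 ± 0.22.

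Of the other genes of these pathways, 28 complement genes were tested and 1 fell with the transgene. This was C4a, the near copy of C4b, at -2.43 ± 0.39 (SE, adjusted p = 0.00115). The C1q chains, which macrophages make, were at 0.57 ± 0.35 (SE, adjusted p = 0.38) for C1qa, 0.79 ± 0.34 (SE, adjusted p = 0.194) for C1qb and 0.79 ± 0.28 (SE, adjusted p = 0.109) for C1qc. C7, the one component of the pore outside the 36, was at 0.61 ± 0.74 (SE, adjusted p = 0.701). Of 24 other clotting and fibrinolysis genes, 4 rose and 1 fell, against 2.89% rising and 3.83% falling over all genes tested. The rises included F13a1, the catalytic subunit of factor XIII, at 3.24 ± 0.71 (SE, adjusted p = 0.0105), Plaur, the urokinase receptor, at 2.55 ± 0.48 (SE, adjusted p = 0.00387) and Vwf, von Willebrand factor, at 1.35 ± 0.35 (SE, adjusted p = 0.027). These genes are known from endothelial cells, macrophages or other cells as well as liver, and 8 of 9 neutrophil markers and 2 of 10 macrophage markers tested also rose, whose part in these rises was not tested. The fall was F3, tissue factor, at -1.69 ± 0.38 (SE, adjusted p = 0.0118).

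Sex split the terminal complement genes in untreated young liver. In 2 females against 4 males, 3 of 36 members were lower in females and none higher, against 0.308% lower and 0.37% higher over all genes. At an unadjusted p under 0.05, 4 of 36 members and 1228 of all genes differed. C6 was at -4.20 ± 0.38 (SE, adjusted p = 0.000142) for female minus male, C8a at -2.65 ± 0.42 (SE, adjusted p = 0.00743) and C8b at -2.29 ± 0.35 (SE, adjusted p = 0.00607). The values are those given above, and the male means were 15.7-fold, 7.41-fold and 6.59-fold the female means. Both females were in batch A. In that batch alone, 2 females against 2 males, C6 was at -4.47, C8a at -2.42 and C8b at -2.02. C9 was at -2.35 ± 0.60 (SE, adjusted p = 0.133) and did not pass, although both females lay below all 4 males. The terminal arm had a median of -2.32 against -0.02 over all genes. C8g and Hc, with -0.30 ± 0.42 (SE, adjusted p = 0.887) and -0.38 ± 0.44 (SE, adjusted p = 0.867), did not pass. With WT_2mon replicate 3 or 4 left out, only C6 was called, and the remaining female was then assumed to vary like the other libraries.

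Outside the terminal arm no member passed in the comparison of the sexes. The smallest p of each arm belonged to F11 at -0.61 ± 0.34 (SE, adjusted p = 0.677), F5 at 0.23 ± 0.37 (SE, adjusted p = 0.909), Fgg at -0.41 ± 0.61 (SE, adjusted p = 0.899), Serpinc1 at 0.38 ± 0.30 (SE, adjusted p = 0.794), C2 at -0.50 ± 0.31 (SE, adjusted p = 0.716), Masp2 at -0.38 ± 0.27 (SE, adjusted p = 0.751) and C3 at 0.69 ± 0.63 (SE, adjusted p = 0.825). Plg was at 0.01 ± 0.34 (SE, adjusted p = 0.997). Without overlap, 8 members were lower in young females (C2, C6, C8a, C8b, C9, Fgb, Klkb1 and Mbl1) and none higher, against 11.6% of all genes lower and 12.3% higher.

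In old liver, the values of C6, C8a and C8b were also lower in the 2 females than in the 3 males, which was not tested on its own. Old females had 384 and 461 normalized counts of C6 and old males 6569, 2864 and 3082. For C8a old females had 964 and 864 and old males 21298, 9503 and 12469, and for C8b 691 and 689 against 10075, 6778 and 8189.9. Each old male lay above both old females for these 3 genes. Pros1 and C2 separated in the same way, and Klkb1, F11, Serpind1 and Mbl2 separated with old females higher. The share of all genes that separate between old males and old females was not computed, so these separations are not read as sex differences. C9 overlapped, with 4082 and 8812 in old females and 17718, 3398 and 9236 in old males. No member had an effect of age that differed between sexes at adjusted p under 0.05, and 2 of all genes tested were called (limma). At an unadjusted p under 0.05, 6 of 36 members and 2969 of all genes differed.

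With age, C8b alone of the 36 members passed, and it fell. Of all genes, 0.048% fell and 0.096% rose, 21 of 14588 in all. At an unadjusted p under 0.05, 7 of 36 members and 1274 of all genes differed. C8b was at -1.47 ± 0.26 (SE, adjusted p = 0.0355), with -1.30 in batch A and -1.76 in batch B. Old males had 10075, 6778 and 8189.9 against 10123, 12554, 27562 and 23035 in young males, and old females 691 and 689 against 3026 and 2536 in young females, with no overlap in either sex. Between old and young females, however, 25.4% of all genes were lower without overlap and 28.9% higher, as were 12 and 9 of the 36 members. The call was lost in males alone (adjusted p = 0.12), in batch A (0.691), in batch B (0.115) and without any 1 of 10 libraries: WT_2year replicates 1, 2, 4 and 5, WT_2mon replicates 2, 3, 4, 5 and 6 and TG_2mon replicate 6 (0.054 to 0.128). In a fit of only the wild-type groups F11 was called in its place.

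C8a, C6 and C9 had negative log2 fold changes with age that did not pass. C8a was at -1.42 ± 0.37 (SE, adjusted p = 0.197), C6 at -1.12 ± 0.40 (SE, adjusted p = 0.476) and C9 at -1.09 ± 0.49 (SE, adjusted p = 0.556). Within batches C9 gave -0.13 in batch A and -2.50 in batch B, and the difference had an adjusted p of 0.103 (limma), the smallest of the 36 members. The old libraries of batch A were 2 females and 1 male and those of batch B were male, so batch and sex cannot be told apart here. Old females had 4082 and 8812 normalized counts against 6262 and 4624 in young females. Old males had 9503 to 21298 normalized counts of C8a, overlapping the young males at 17365 to 39076, whereas old females lay below both young females. In females, 25.4% of all genes were lower with age in this way. For C6, WT_2year replicate 3, at 6569, lay inside the range of the young males, and the other old males lay below it. The terminal arm had a median of -1.10, the 36 members 0.14 and all genes -0.003. C8g and Hc were at -0.25 ± 0.44 (SE, adjusted p = 0.858) and 0.39 ± 0.32 (SE, adjusted p = 0.697).

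F11 had 1008, 856 and 938 normalized counts in old males and 1452 and 1049 in old females, all below the 6 young libraries, at 1742 to 3407. Its log2 fold change was -1.11 ± 0.28 (SE, adjusted p = 0.167). Such separation of all old from all young libraries held for 0.26% of all genes as lower and 0.35% as higher. Klkb1 was at -0.70 ± 0.26 (SE, adjusted p = 0.497). In old males it had 6088, 5008 and 8151, below all young males, but old females, at 9306 and 9874, spanned the young females. Without overlap, 4 members were lower in old males than in young males (C8b, C9, F11 and Klkb1) and none higher, against 3.48% of all genes lower and 3.86% higher.

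The highest fibrinogen shares were in 3 old or transgenic males. The chains made up 4.94% of the normalized counts in TG_2mon replicate 2, 4.19% in WT_2year replicate 4 and 3.30% in WT_2year replicate 3, against 0.70% to 1.83% in young wild type. WT_2year replicate 5, the other old male, was at 0.82%, inside the young range. C3 followed this order in old males, with 413840.1, 595050.5 and 90584, and was at 1.21 ± 0.45 (SE, adjusted p = 0.494). Fga was at 0.75 ± 0.50 (SE, adjusted p = 0.648) and Pros1, with 6566, 4457 and 1606 in old males, at 0.64 ± 0.35 (SE, adjusted p = 0.598). In the other arms the smallest p with age belonged to F5 at 0.28 ± 0.29 (SE, adjusted p = 0.75), C1s1 at 0.23 ± 0.24 (SE, adjusted p = 0.75) and Masp2 at -0.23 ± 0.20 (SE, adjusted p = 0.711), and Plg was at 0.13 ± 0.24 (SE, adjusted p = 0.864).

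**Figure D5:**
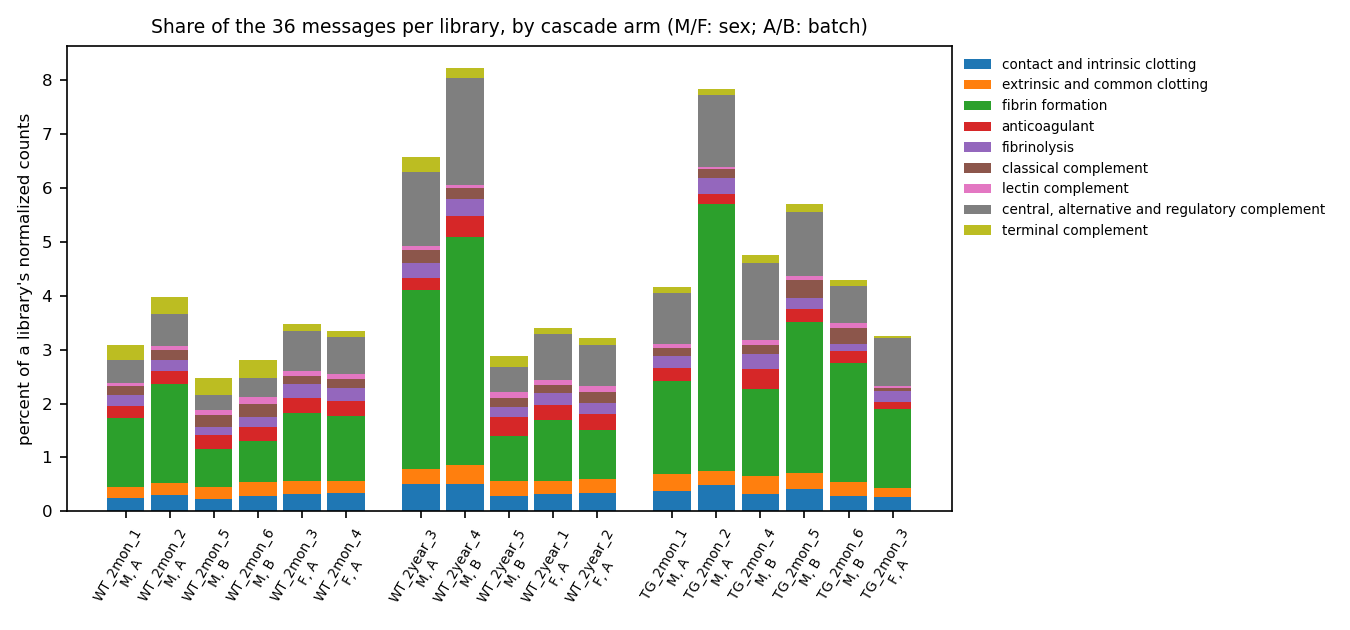
Percent of each library's normalized counts taken by the 36 members, stacked by cascade arm, for the 17 libraries ordered by group and sex (M or F) with the batch (A or B). The members' share runs from 2.48% to 8.22%, and most of its variation lies in fibrin formation, from 0.71% to 4.96%, and in the central complement arm, which holds C3.

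In the authors' deposited table for age, 4 members were lower (F11, C6, C8a and C8b) and none higher, of 0.702% lower and 1.07% higher over its 15814 genes. The authors' deposited table gave F11 a log2 fold change of -1.14 ± 0.22 (their SE) and C8a -1.39 ± 0.33. Of the 28 other complement genes and 24 other clotting genes, 0 passed with age in the limma fit, and 4 and 4 differed at an unadjusted p under 0.05. In the comparison of young females and males 0 passed, and 2 and 0 differed at an unadjusted p under 0.05. The neutrophil marker sum of old libraries, with a median of 553, lay above the young median of 75.1, and its part in the age values was not tested.

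Transgenic and old liver were also compared directly, because each comparison with young wild type shares the same 6 libraries. Of 36 members, 2 were lower in transgenic liver and none higher, against 1.84% lower and 0.713% higher over all genes. At an unadjusted p under 0.05, 9 of 36 members and 2234 of all genes differed. Without WT_2year replicate 4 the count of members called was 4. C6 was at -2.34 ± 0.41 (SE, adjusted p = 0.00481). All 5 transgenic males, at 429 to 671, lay below the 3 old males, at 2864 to 6569. C1s1 was at -1.20 ± 0.24 (SE, adjusted p = 0.0131), with 24419.9, 13239.9 and 11481 in old males and 13644 and 13218 in old females. C8b, C8a and C9, whose log2 fold changes against young liver were negative in both groups, were at -0.28 ± 0.27 (SE, adjusted p = 0.677), -0.75 ± 0.37 (SE, adjusted p = 0.353) and -1.30 ± 0.50 (SE, adjusted p = 0.213) and did not pass. In batch B, all male, C9 was at 0.52, opposite in sign to -2.83 in batch A, which holds the transgenic female and both old females.

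The other arms showed no call between transgenic and old liver. Their smallest p belonged to F13b at -0.50 ± 0.19 (SE, adjusted p = 0.209), Masp2 at -0.46 ± 0.20 (SE, adjusted p = 0.294), Serpind1 at -0.59 ± 0.27 (SE, adjusted p = 0.299), F8 at -0.72 ± 0.34 (SE, adjusted p = 0.328), Cfi at -0.31 ± 0.29 (SE, adjusted p = 0.673), F2 at -0.20 ± 0.22 (SE, adjusted p = 0.727) and Plg at -0.14 ± 0.25 (SE, adjusted p = 0.843). F11 was at 0.00 ± 0.28 (SE), with an adjusted p of 0.999. Of the 28 other complement genes, C4a and Cfd, the protease that activates factor B, were lower in transgenic liver, at -2.75 ± 0.41 (SE, adjusted p = 0.00146) and -3.84 ± 0.81 (SE, adjusted p = 0.0166).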

How the data were processed

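Polyadenylated liver RNA was measured in 17 libraries, grouped by the labelled genotype and age. The submitters' processing notes name mm10 and, as tools of the authors, DESeq2, Salmon 0.6.0 and STAR 2.5.3a. Strandedness, annotation and the use made of each tool are not given in the sources used here. Deposited files are 1 table of normalized counts by the authors, used here as a signal, with 0 columns that matched no sample, and 2 tables of comparisons. Those deposited tables give the authors' mean signal, log2 fold change with its SE, a test score and a p-value, and served as an alternative. The values are not whole counts, so depth is unknown and no counting interval or floor was computed.

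Each comparison was fitted with limma 3.58.1 in R 4.3.3 (lmFit and eBayes with a trend) on log2(value + 1), for the 14588 genes with a mean of at least 10, with group, batch and sex as terms and all 17 libraries sharing 1 estimate of the spread. Calls needed an adjusted p under 0.05 (Benjamini-Hochberg over all genes tested, two-sided tests). Since fold changes are on the log2(value + 1) scale, they understate what low genes did. The comparison of sexes and the differences of effects between sexes came from a fit of group-by-sex cells with batch, and those between batches from group-by-batch cells with sex. The script was tested on simulated data. "Fell", "rose" and "changed" are used of called genes, and "no overlap" means that the lowest value of a group lay above the highest of the other.

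The 36 members were set by gene symbol, and they and the other lists were chosen with earlier results of these data known. Members past the threshold are given with their values in the libraries compared, and the member with the smallest p of each arm with its fold change. Coordinates, exon lengths and 3′ UTRs are from GENCODE M21 (GRCm38). Promoter windows and miRNAs are RefSeq entries on GRCm38.p6, and 28 of the 36 members had a window. The labels' replicate numbers did not pair the libraries. Alternatives covered the pseudocount, the filter, 3 rescalings, the terms and libraries of the fit and leaving out each library. Some genes and a motif of the other lists are not reported here.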

Additional observations from a re-analysis of the deposited data

Results flagged for a closer look

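Within a group, 7 of 108 sets of values had a library that stood apart from the rest by Dixon's criterion, which chance gives in about 1 of 20. F11 in TG_2mon replicate 1 was 2877.9 normalized counts, with the nearest transgenic library at 1164.4. Fga in TG_2mon replicate 2 was 551252.4, with the nearest at 259866.9. In WT_2mon replicate 2, Fgb was 249823.0, with the nearest at 155123.2, and Fgg was 196959.2, with the nearest at 111066.6. In WT_2year replicate 3, C1ra was 14478.0, with the nearest at 8313.2, and C1s1 was 24419.9, with the nearest at 13644.0. Masp1 in WT_2mon replicate 1 was 2200.4, with the nearest at 827.6. In each of these sets the library apart was the highest.

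The effect of the transgene differed between the sexes for 2 members (limma interaction, 1 transgenic female). The log2 difference, females minus males, was 2.94 for C6 (adjusted p = 0.0252) and -1.92 for Cfi (adjusted p = 0.0465). Sex and that 1 library cannot be told apart.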

How the results depend on the processing

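The 16 results for single members had 517 alternative values, of which 0 changed sign, 422 kept their side of the threshold and 95 lost the call. For age, the count of members called, 1 in the report, was 0 with quantile normalization, with equal totals, without the sex term, without the batch term, in males only, in batch A and in batch B, and 4 in the authors' deposited table. For the transgene, the count of 10 became 6 without the sex term, 6 without the batch term, 6 in males only, 6 in batch A, 2 in batch B and 16 in the authors' deposited table, and the members' median of -0.20 became -0.48 in batch A. For transgenic against old liver, the count of 2 became 0 without the sex term and 1 without the batch term, in males only, in batch A and in batch B, and the members' median of -0.33 became -0.61 in batch A and 0.0104 in batch B. Leaving out each library in turn gave counts from 0 to 1 for age, 5 to 12 for the transgene, 2 to 4 for transgenic against old and 1 to 4 for sex, and members' medians from 0.07 to 0.26, -0.30 to -0.06, -0.43 to -0.10 and -0.27 to -0.13 in the same order. The fits that leave out libraries hold fewer of them, and the cause of these changes was not tested. With the replicate number as a block, the sex count of 3 became 0 and its median of -0.19 became -0.48. The numbers do not pair the libraries: the deviations of 16 same-numbered pairs had a median correlation of -0.04, 7 pairs were over 0.1, and 6 of 17 libraries correlated best with a library of their own number. Depth is unknown, and 1 transgenic female and 2 females in each wild-type group limit what can be said of sex. All of these females are in batch A, so its values differ from those of batch B in sex as well.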
